A study of Homo sapiens with 12 samples.

Results

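LB cells that had received amiodarone together with hydroxypropyl-beta-cyclodextrin (HPbCD) were compared with LB cells that had received the solvent alone, over all genes whose mean in the 6 libraries compared reached 1 TPM, a unit that divides each gene's reads by its length and by the library's total. This took in 13855 of the 57152 genes with values, of which 12053 were protein-coding. At the edge of this limit, 223 genes had a mean of 1 to 1.1 TPM and were kept, and 240 with a mean of 0.9 to 1 TPM were not. LB cells are labelled as a line with A549, a human lung adenocarcinoma line, as its source, and the labels do not say what LB stands for, how the line was made or whether it is 1 clone. The 12 libraries of mRNA formed 4 groups of 3: A549 DMSO, LB DMSO, LB amiodarone and LB amiodarone plus HPbCD, the last called the combined treatment here. All cells grew in RPMI medium with serum. Vehicle cells had 0.1% DMSO for 24 h, amiodarone was given at 10 µM for 24 h, and in the combined treatment HPbCD was present at 10 mg/ml when the cells were seeded, and the drug followed 24 h later. HPbCD without the drug was not analysed here, so the combined treatment differed from vehicle by both agents at once and their shares cannot be told apart from this comparison. The series concerns how a lipid balance shifted by HPbCD bears on the disorder that amiodarone brings about in alveolar cells.

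Amiodarone is a cationic amphiphilic antiarrhythmic drug that gathers in acidic compartments, where phospholipids and cholesterol then pile up, and its use is known for lung toxicity. HPbCD is a ring of sugars with a greasy cavity that takes up cholesterol, and it is known both to draw cholesterol from the cell surface and to free cholesterol held in late endosomes and lysosomes. Cells read the sterol content of the endoplasmic reticulum through the SREBP2 pathway, which turns on cholesterol synthesis and uptake when sterol is short, through LXR receptors, which turn on cholesterol export when oxysterols are plentiful, and they answer lysosomal stress through TFEB and its relatives, which turn on lysosomal genes.

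Library totals lay between 999545 and 999632 TPM over the 6 libraries. The number of reads behind a value is unknown, because TPM does not keep it. Over the tested genes, which do not count as independent replicates, libraries correlated at 0.9854 to 0.9884 within the LB DMSO and combined groups and at 0.9759 to 0.978 between them. In a principal component analysis of the 9 LB libraries, the first component held 31% of the variance, with LB DMSO at -22.3 to -20.5, amiodarone alone at 0.8 to 2.5 and the combined treatment at 18.1 to 21.2. On the second component (13.6%), amiodarone alone lay at -17.6 to -13.5, apart from LB DMSO at 4.6 to 7.6 and the combined treatment at 5 to 11.5. The mitochondrial genome gave 6.73% to 8.41% of TPM in LB DMSO and 5.38% to 6.73% in the combined treatment, and ribosomal protein transcripts 17.24% to 17.7% and 16.68% to 17.31%. Below, 3 values before a change are LB DMSO replicates 1 to 3 and 3 values after it are combined replicates 1 to 3, a mean is given ± SD with n = 3 libraries, and log2 differences are between means of log2(TPM + 1), a scale that makes the change of low genes look smaller. Adjusted p are from limma with Benjamini-Hochberg adjustment over the 13855 genes, and "rose" and "fell" are used of genes with an adjusted p under 0.05. Nothing in the labels says that the replicates were separate cultures, so a p-value here reflects no more than the spread between libraries, which may be technical. That spread was estimated over all 12 libraries of the 4 groups, A549 DMSO included. An SE or p-value can therefore differ from what the 6 values given for a gene alone would yield. Positions are those of GENCODE 29 on GRCh38.

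The combined treatment moved genes both ways. Between the groups 1420 genes rose (10.2% of those tested) and 1095 fell (7.90%), 2515 in all (18.2%), with a median log2 difference over all tested genes of -0.02. Rises were larger than falls: 183 genes (1.32%) rose at least 2-fold, meaning a log2 difference of at least 1, and 32 (0.231%) fell by as much. Of the genes that rose, 1370 were protein-coding, and of those that fell, 1022. The 3 combined libraries all lay above the 3 LB DMSO libraries in 2663 genes (19.2%) and all below them in 2772 (20.0%). For the 15 largest rises and 15 largest falls named below, such separation was a condition of the choice and not a separate result. Members of lists were named for the largest differences past the test, a choice that favours separation, so theirs adds no separate support either. With each of the 12 libraries left out in turn, 894 of the 1420 rises (63.0%) and 472 of the 1095 falls (43.1%) passed the test every time, as did 176 of the 183 rises of at least 2-fold (96.2%) and 26 of the 32 such falls (81.2%). Leaving out LB DMSO replicate 1 gave 685 falls, leaving out LB DMSO replicate 3 gave 717 and leaving out combined replicate 1 gave 681. The plot of log2 difference against mean level marks the interferon-stimulated, sterol, lysosomal and cell cycle lists. Of all 13855 tested genes, 6516 had a difference above 0. So did 41 of 42 interferon-stimulated, 21 of 21 cholesterol synthesis, 9 of 15 sterol uptake and SREBP control, 36 of 45 lysosomal enzyme and 1 of 48 cell cycle genes. The plot of gene lists gives every tested member of each list.

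**Figure D1:**
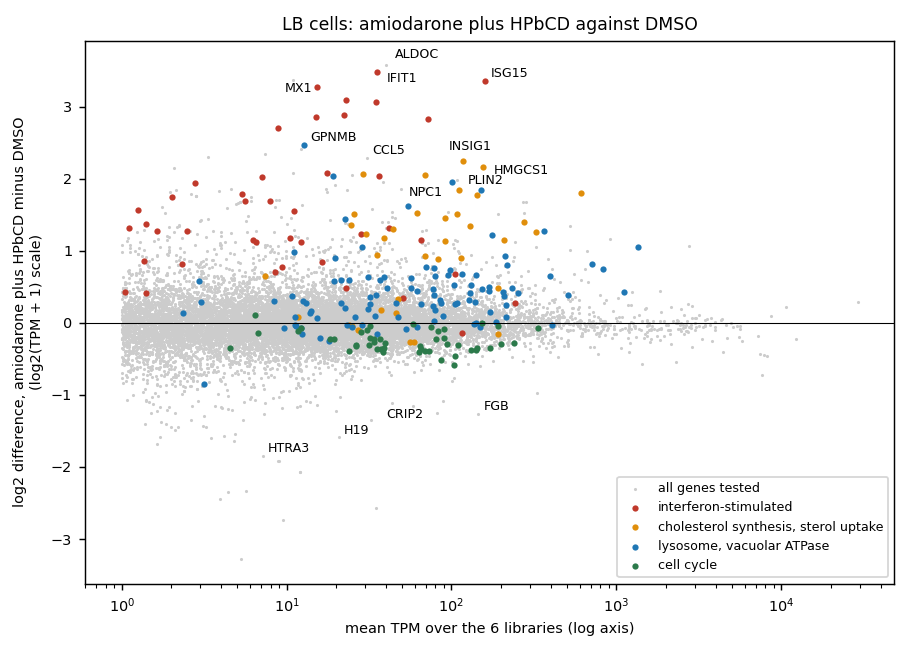
Log2 difference of the combined treatment from LB DMSO (vertical axis, log2(TPM + 1) scale) against the mean TPM of the 6 libraries (horizontal log axis), 1 point a gene, all 13855 tested genes in grey and 4 groups of lists in colour. Interferon-stimulated genes reach 3.49 and cholesterol genes 2.25, while the falls of cell cycle genes stay within -0.59.

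**Figure D2:**
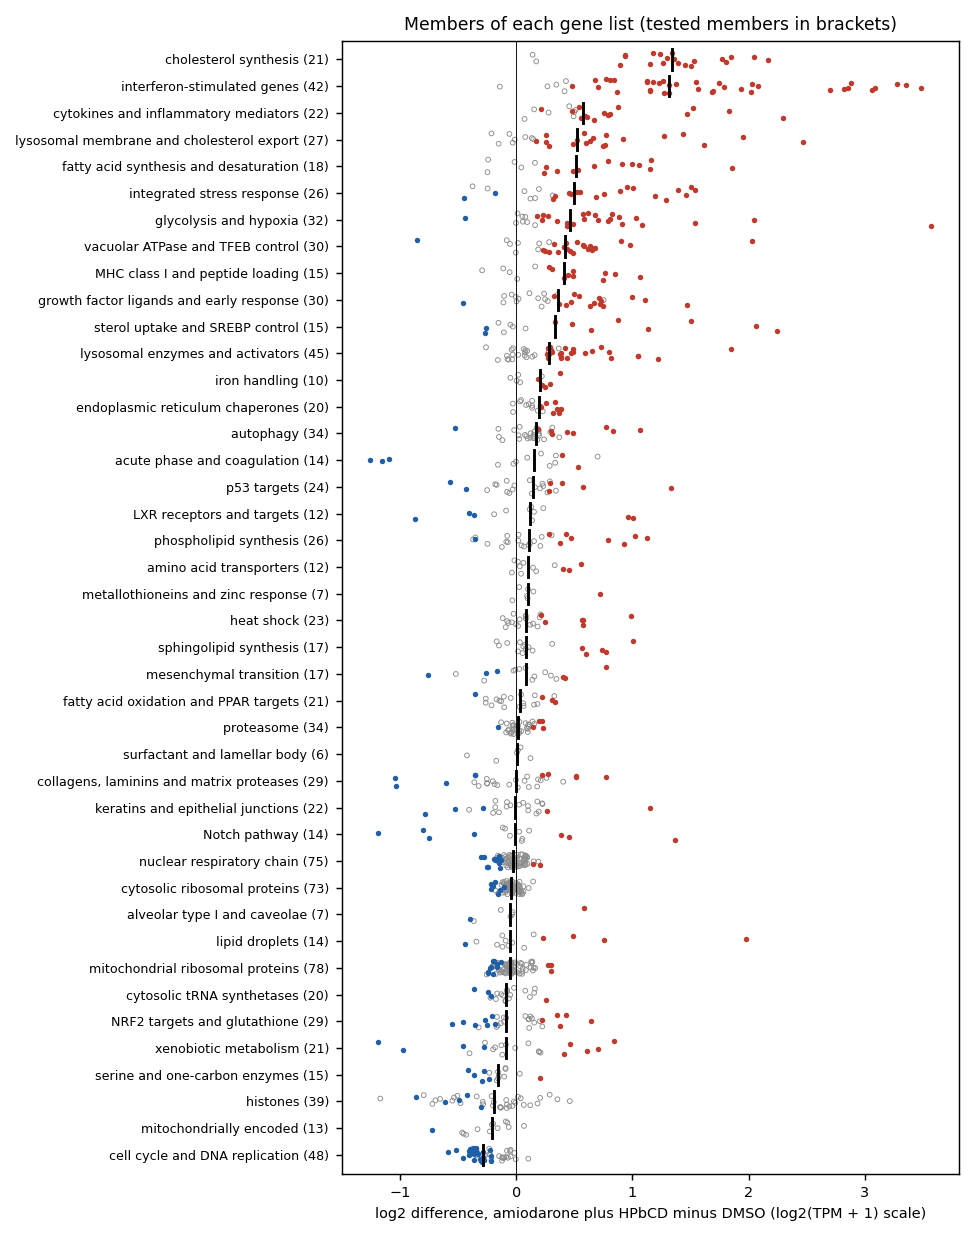
Log2 difference of the combined treatment from LB DMSO for each tested member of each list (horizontal axis), lists in rows ordered by their median (black bar); red points rose, blue points fell and open grey points did not pass the test. Cholesterol synthesis (median log2 difference 1.34) and interferon-stimulated genes (1.31) stand at the top.

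Cholesterol synthesis genes rose nearly as a whole. Among 21 cholesterol synthesis genes tested, 19 rose and 2 were not called (median log2 difference 1.34), and 16 rose at least 2-fold. PMVK and GGPS1 were the ones not past the test. From the first steps of the pathway, HMGCS1 (chr5:43289395-43313512, minus strand), a synthase of the early pathway, rose from 56.8, 58.9 and 53 TPM to 259, 237 and 270.0 TPM (log2 difference 2.16 ± 0.12 SE, adjusted p = 1.5e-07). MVD, which makes isopentenyl diphosphate, rose from 47.5, 49.3 and 47 TPM to 169, 179 and 178 TPM (log2 difference 1.85 ± 0.055 SE, adjusted p = 5.63e-10). Both act on the way from acetyl units to the isoprene unit from which sterols are built. Further along the pathway, FDPS, the farnesyl diphosphate synthase, rose from 277, 270.4 and 261 TPM to 961, 928 and 939.5 TPM (log2 difference 1.80 ± 0.045 SE, adjusted p = 2.13e-10). MSMO1, a methylsterol oxidase of the late steps, rose from 26.4, 26.2 and 26.2 TPM to 119.8, 102 and 114 TPM (log2 difference 2.04 ± 0.086 SE, adjusted p = 1.63e-08). For all 4 genes the 3 combined libraries lay far above the 3 LB DMSO libraries, with no overlap. In all 21 members, those not past the test included, the combined libraries lay above the LB DMSO libraries, as they did in 19.2% of all tested genes.

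Sterol uptake and the control of SREBP moved with synthesis in part. Among 15 genes of sterol uptake and SREBP control tested, 8 rose, 2 fell and 5 were not called (median log2 difference 0.34). INSIG1 (chr7:155297776-155310235, plus strand), the sterol-responsive protein that holds SREBP back in the endoplasmic reticulum, rose from 38.8, 39.1 and 42.8 TPM to 204, 173 and 208 TPM (log2 difference 2.25 ± 0.087 SE, adjusted p = 6.43e-09). STARD4, a carrier that moves cholesterol between membranes, rose from 13.7, 12.4 and 12.6 TPM to 41.6, 36.5 and 37.6 TPM (log2 difference 1.51 ± 0.079 SE, adjusted p = 1.08e-07). SREBF2, which encodes SREBP2 itself, rose from 40.8, 43.7 and 40.5 TPM to 53.9, 52 and 52.5 TPM (log2 difference 0.34 ± 0.076 SE, adjusted p = 0.00905), a smaller change. The groups did not overlap in these 3. The other SREBP gene was not past the test. SREBF1, which encodes SREBP1, was at 209, 194 and 202 TPM and 177, 190.0 and 177 TPM (log2 difference -0.15 ± 0.099 SE, adjusted p = 0.323). The falls were ERLIN1, an endoplasmic reticulum protein that takes part in SREBP control (log2 difference -0.26 ± 0.052 SE, adjusted p = 0.00407), and MBTPS1, the protease that makes the first cut of SREBP (log2 difference -0.26 ± 0.067 SE, adjusted p = 0.0166, a call lost without LB DMSO replicate 1 or combined replicate 3, at 0.00261 to 0.0575 over the libraries left out).

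The upstream sequences of cholesterol synthesis genes are shown because these members moved together. RefSeq (GRCh38.p14) gave a promoter, 250 bases before to 50 after the start, for 10158 of the 13855 tested genes and for 16 of the 21 cholesterol synthesis genes. The CCAAT box, the letters CCAAT on either strand, was present in 12 of the 16 (75%) against 35.7% of all 27305 promoters in the table and 36.7% of those of tested genes. Other lists also held it: integrated stress response 58.3%, vacuolar ATPase and TFEB control 52.2%, sterol uptake and SREBP control 44.4% and lysosomal enzymes 43.3%. Lysosomal membrane and interferon-stimulated genes each stood at 37.5%. A sterol regulatory element written TCACNCCAC, on either strand, was present in 0 of the 16, in 1.15% of all promoters and in 0.984% of those of tested genes. No match says only that these letters are not in this window. In the 160 bases before the start that follow, 5′ to 3′ on the gene's strand, capitals mark CCAAT or, where the box lies on the other strand, ATTGG. The windows are chr5:43313413-43313572, minus strand, for HMGCS1, chr4:165327509-165327668, plus strand, for MSMO1, and chr16:88663092-88663251, minus strand, for MVD.
HMGCS1: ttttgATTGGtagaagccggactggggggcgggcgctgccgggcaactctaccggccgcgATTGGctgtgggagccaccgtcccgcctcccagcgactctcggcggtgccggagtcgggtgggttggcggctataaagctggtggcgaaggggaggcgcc
MSMO1: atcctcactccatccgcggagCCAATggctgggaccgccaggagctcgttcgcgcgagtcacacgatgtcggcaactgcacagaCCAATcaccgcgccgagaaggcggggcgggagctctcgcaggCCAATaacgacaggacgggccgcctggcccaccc
MVD: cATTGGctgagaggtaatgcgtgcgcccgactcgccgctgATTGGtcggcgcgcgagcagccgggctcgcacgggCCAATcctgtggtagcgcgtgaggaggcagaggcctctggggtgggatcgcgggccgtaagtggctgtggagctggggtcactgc
HMGCS1 held 2 boxes, starting at -155 and -100 from the RefSeq start. MVD held 3, at -159, -120 and -85, and MSMO1 4, of which those at -139, -76 and -34 are in the printed stretch.

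Fatty acid synthesis genes also rose. Among 18 fatty acid synthesis and desaturation genes tested, 13 rose and 5 were not called (median log2 difference 0.51). ACSS2, which makes acetyl-CoA from acetate, rose from 21.7, 21.8 and 19.1 TPM to 71.3, 88.4 and 75.8 TPM (log2 difference 1.86 ± 0.12 SE, adjusted p = 4.68e-07). SCD, the desaturase that makes oleate, rose from 589, 536 and 563 TPM to 1347, 1232 and 1204 TPM (log2 difference 1.16 ± 0.10 SE, adjusted p = 1.04e-05). FASN, the fatty acid synthase, rose from 172, 169 and 159.6 TPM to 309.7, 339 and 297 TPM (log2 difference 0.91 ± 0.079 SE, adjusted p = 7.33e-06). Each of these had its combined libraries above all LB DMSO libraries. The desaturase FADS1 (211 ± 8.62 to 439.9 ± 19.3 TPM) and ACSL4 (14.8 ± 3.14 to 33.6 ± 2.15 TPM), an acyl-CoA synthetase for polyunsaturated fatty acids, rose likewise (adjusted p at most 6.16e-05). The 5 members not past the test were ACACB, ELOVL1, ME1, MLXIPL and SCD5.

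Phospholipid and sphingolipid genes moved at fewer steps. Among 26 phospholipid synthesis genes tested, 8 rose (30.8%, all genes 10.2%), 1 fell (3.85%, all genes 7.90%) and 17 were not called (median log2 difference 0.11). LPIN1, a phosphatidate phosphatase, rose from 18.2, 17 and 13.6 TPM to 37.1, 39.3 and 33.1 TPM (log2 difference 1.12 ± 0.14 SE, adjusted p = 0.000145). PCYT2, which sets the pace of phosphatidylethanolamine synthesis, rose from 28.6, 28.4 and 28.8 TPM to 56.4, 62.1 and 59.1 TPM (log2 difference 1.03 ± 0.074 SE, adjusted p = 1.56e-06). CHKA, the choline kinase that opens phosphatidylcholine synthesis, rose from 21.6, 20.9 and 21.9 TPM to 39.2, 44 and 42.5 TPM (log2 difference 0.93 ± 0.069 SE, adjusted p = 1.95e-06). All 3 act on the route to the main membrane phospholipids. LPCAT1, an acyltransferase known from surfactant phosphatidylcholine, rose from 58.3, 53.5 and 55.6 TPM to 99.4, 93.7 and 98.9 TPM (log2 difference 0.79 ± 0.059 SE, adjusted p = 1.98e-06). In these 4 genes the groups did not overlap. The 1 fall was LPCAT4, another lysophospholipid acyltransferase (log2 difference -0.35 ± 0.091 SE, adjusted p = 0.0176, a call lost without LB DMSO replicates 1 or 2 or combined replicates 1 or 3, at 0.00521 to 0.0734 over the libraries left out). Among 17 sphingolipid synthesis genes tested, 5 rose (29.4%) and 12 were not called (median log2 difference 0.084). UGCG, which makes glucosylceramide, rose from 9.58, 12.6 and 10.9 TPM to 26.1, 21.7 and 21.6 TPM (log2 difference 1.01 ± 0.17 SE, adjusted p = 0.0012). The ceramide synthases CERS4 (2.33 ± 0.299 to 4.71 ± 0.627 TPM) and CERS1 (5.01 ± 0.924 to 8.06 ± 0.538 TPM, lost without LB DMSO replicates 1 or 3 or combined replicates 1 or 2, adjusted p 0.00653 to 0.07 over the libraries left out) and the ceramide carrier COL4A3BP (14.1 ± 0.481 to 24.1 ± 1.19 TPM) rose as well (adjusted p at most 0.0163).

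Lipid storage was marked by 1 large rise. PLIN2 (chr9:19108375-19149290, minus strand), the coat protein of lipid droplets, rose from 43.2, 44.5 and 42.1 TPM to 175, 171 and 174 TPM (log2 difference 1.98 ± 0.054 SE, adjusted p = 3.09e-10). Among 14 lipid droplet genes tested, 4 rose (28.6%, all genes 10.2%), 1 fell (7.14%, all genes 7.90%) and 9 were not called (median log2 difference -0.05). MGLL, the monoacylglycerol lipase, rose from 3.2, 2.88 and 2.71 TPM to 5.82, 5.87 and 5.23 TPM (log2 difference 0.76 ± 0.12 SE, adjusted p = 0.000716). PLIN4, another droplet coat, rose from 2.93, 2.77 and 2.23 TPM to 3.87, 4.97 and 3.58 TPM (log2 difference 0.49 ± 0.13 SE, adjusted p = 0.0239, a call lost without LB DMSO replicate 3 or combined replicate 2, at 0.025 to 0.0873 over the libraries left out). In PLIN2, MGLL and PLIN4 the combined libraries lay above all LB DMSO libraries, and MGLL and PLIN4 are low in level. The 1 fall was DGAT2, which makes triglyceride, from 5.07, 4.88 and 4.91 TPM to 2.77, 3.64 and 3.84 TPM (log2 difference -0.44 ± 0.14 SE, adjusted p = 0.0413, a call lost without LB DMSO replicates 1, 2 or 3, LB amiodarone replicates 1, 2 or 3 or combined replicates 1 or 2, at 0.0217 to 0.158 over the libraries left out). Among 21 fatty acid oxidation genes and PPAR targets tested, 3 rose, 1 fell and 17 were not called (median log2 difference 0.03), shares near those of all genes. The number of falls was 0 without LB DMSO replicate 1 or combined replicates 1 or 3, 2 without combined replicate 2 and 3 with quantile normalization. The rate-setting carnitine palmitoyltransferase CPT1A was at 43.3, 41 and 44.2 TPM and 44, 44.8 and 45.6 TPM (log2 difference 0.062 ± 0.053 SE, adjusted p = 0.463). PDK4, a PPAR target that holds back pyruvate use, was at 5.15, 5.36 and 5.65 TPM and 6.83, 6.84 and 7.38 TPM (log2 difference 0.33 ± 0.17 SE, adjusted p = 0.214). ANGPTL4, a secreted lipase inhibitor and PPAR target, was at 53.9, 60.2 and 59.4 TPM and 60.6, 70.3 and 66.5 TPM (log2 difference 0.18 ± 0.10 SE, adjusted p = 0.256).

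Genes of the LXR arm of sterol control went both ways. Among 12 LXR receptor genes and targets tested, 2 rose (16.7%, all genes 10.2%), 3 fell (25%, all genes 7.90%) and 7 were not called (median log2 difference 0.12). ABCG1, a transporter that exports cholesterol, fell from 3.96, 3.54 and 2.51 TPM to 1.34, 1.87 and 0.92 TPM (log2 difference -0.87 ± 0.19 SE, adjusted p = 0.00764). MYLIP, a ubiquitin ligase, fell from 6.6, 7.42 and 8.24 TPM to 5.84, 5.4 and 4.81 TPM (log2 difference -0.41 ± 0.12 SE, adjusted p = 0.0306, a call lost without LB DMSO replicates 2 or 3 or combined replicates 2 or 3, at 0.0269 to 0.115 over the libraries left out). ABCA1, the exporter that loads cholesterol on apolipoprotein A1, was at 6.82, 6.16 and 5.72 TPM and 7.98, 7.86 and 5.29 TPM (log2 difference 0.14 ± 0.16 SE, adjusted p = 0.592), with the groups overlapping. Of these 3, ABCG1 and MYLIP lay wholly below vehicle. APOC1, an apolipoprotein, rose from 334, 378 and 329 TPM to 668, 729 and 689 TPM (log2 difference 1.003 ± 0.17 SE, adjusted p = 0.00128). APOE, the neighbouring apolipoprotein, rose from 77, 84.1 and 63.8 TPM to 142, 172 and 128 TPM (log2 difference 0.96 ± 0.28 SE, adjusted p = 0.031, a call lost without LB DMSO replicates 1, 2 or 3 or combined replicates 1, 2 or 3, at 0.000745 to 0.107 over the libraries left out). For both apolipoproteins the combined libraries lay above the LB DMSO libraries, APOE with the wider spread.

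Lysosomal genes rose across their roles. Among 27 genes of the lysosomal membrane and of cholesterol export from it tested, 19 rose and 8 were not called (median log2 difference 0.53). GPNMB (chr7:23235967-23275108, plus strand), a glycoprotein known to mark lysosomal lipid storage, rose from 2.73, 3.22 and 3.77 TPM to 22.3, 24.7 and 20.3 TPM (log2 difference 2.47 ± 0.16 SE, adjusted p = 5.53e-07). NPC1 (chr18:23506184-23586898, minus strand), the membrane protein that passes cholesterol out of the lysosome, rose from 42, 41 and 39.8 TPM to 166, 164 and 154 TPM (log2 difference 1.95 ± 0.068 SE, adjusted p = 2.1e-09). SLC17A5, the exporter of sialic acid, rose from 11.7, 12.1 and 11.5 TPM to 35.4, 32.7 and 32.7 TPM (log2 difference 1.44 ± 0.10 SE, adjusted p = 1.56e-06). These are a storage marker and 2 exporters. CD68, a lysosomal membrane glycoprotein also used to mark macrophages, rose from 24.9, 27.6 and 27.1 TPM to 83, 85.6 and 81.2 TPM (log2 difference 1.62 ± 0.097 SE, adjusted p = 2.73e-07). The groups did not overlap in any of the 4. NPC2, the soluble partner that hands cholesterol to NPC1, rose with it (214 ± 12.3 to 518 ± 6.49 TPM, adjusted p = 7.06e-08). LAMP1, a major protein of the lysosomal coat, rose from 74.7, 74.5 and 73.2 TPM to 84, 86.7 and 80.7 TPM (log2 difference 0.17 ± 0.043 SE, adjusted p = 0.0138, a call lost without combined replicate 2, at 0.012 to 0.0516 over the libraries left out). MCOLN1, the lysosomal calcium channel, was among the 8 not past the test.

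Lysosomal enzymes followed with smaller differences. Among 45 lysosomal enzymes and activators tested, 25 rose and 20 were not called (median log2 difference 0.28). NEU1, the lysosomal sialidase, rose from 66.4, 65.8 and 62.3 TPM to 238, 230.5 and 238 TPM (log2 difference 1.85 ± 0.049 SE, adjusted p = 2.95e-10). ASAH1, the acid ceramidase, rose from 97.5, 109.5 and 108 TPM to 243, 256 and 240.4 TPM (log2 difference 1.22 ± 0.055 SE, adjusted p = 2.84e-08). CTSL, a cysteine protease, rose from 848, 881 and 918 TPM to 1872, 1767 and 1833 TPM (log2 difference 1.05 ± 0.056 SE, adjusted p = 1.26e-07). The combined libraries lay above the LB DMSO libraries in these 3. CTSD, the main aspartic protease, rose from 526, 523 and 494 TPM to 881, 927 and 909 TPM (log2 difference 0.82 ± 0.062 SE, adjusted p = 2.3e-06). CTSS, a further cathepsin, rose from 17.4, 17.6 and 20.1 TPM to 42.3, 37.1 and 37.8 TPM (log2 difference 1.05 ± 0.12 SE, adjusted p = 8.99e-05). LIPA, the acid lipase that frees cholesterol and fatty acids from lipoproteins, rose from 59.5, 60.2 and 64.8 TPM to 99.3, 97.9 and 94.9 TPM (log2 difference 0.65 ± 0.066 SE, adjusted p = 2.76e-05). These 3 did not overlap between the groups either. PLA2G15, the lysosomal phospholipase A2 that amiodarone is known to inhibit, was at 8.32, 11.8 and 8.12 TPM and 13.3, 11.9 and 11.6 TPM (log2 difference 0.37 ± 0.14 SE, adjusted p = 0.0963), and its groups overlapped.

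The proton pump of the lysosome and the switch that controls TFEB formed a further set. Among 30 genes of the vacuolar ATPase and of TFEB control tested, 22 rose, 1 fell and 7 were not called (median log2 difference 0.42). RRAGD, a Rag GTPase that brings TFEB to the lysosome, rose from 6.61, 7.26 and 6.95 TPM to 31.2, 29 and 34.1 TPM (log2 difference 2.03 ± 0.11 SE, adjusted p = 1.08e-07). RRAGC, its close relative, rose from 13.9, 13.1 and 13.2 TPM to 27.3, 24.8 and 25.8 TPM (log2 difference 0.90 ± 0.073 SE, adjusted p = 4.29e-06). FNIP1, a partner of folliculin in the same switch, rose from 7.64, 6.54 and 7.34 TPM to 15.7, 14.7 and 14.9 TPM (log2 difference 0.98 ± 0.10 SE, adjusted p = 3.47e-05). RRAGD and RRAGC form dimers with RRAGA or RRAGB on the lysosomal surface. TFEB, the transcription factor itself, was the 1 member that fell, and it fell from 5.13, 4.32 and 3.59 TPM to 1.63, 2.23 and 2.01 TPM (log2 difference -0.85 ± 0.17 SE, adjusted p = 0.00421). The 3 genes that rose lay wholly above vehicle and TFEB wholly below it. A CLEAR element written TCACGTGA, the same on both strands, was present in the 300-base promoter of 5 of 30 lysosomal enzymes (16.7%), 6 of 24 lysosomal membrane genes (25%) and 2 of 23 vacuolar ATPase and TFEB control genes (8.7%), against 1.04% of all promoters and 2.01% of those of tested genes.

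Autophagy genes that rose included cargo receptors and coats of the autophagosome. Among 34 autophagy genes tested, 8 rose (23.5%, all genes 10.2%), 1 fell (2.94%, all genes 7.90%) and 25 were not called (median log2 difference 0.17). SQSTM1, the receptor that carries cargo into autophagosomes, rose from 1796, 1806 and 1783 TPM to 3694, 3816 and 3752 TPM (log2 difference 1.06 ± 0.035 SE, adjusted p = 1.31e-09). OPTN, another cargo receptor, rose from 36.1, 36.1 and 30.3 TPM to 63.8, 64.6 and 56 TPM (log2 difference 0.83 ± 0.086 SE, adjusted p = 3.55e-05). MAP1LC3B, whose lipidated product coats autophagosomes, rose from 35.1, 36.7 and 33.1 TPM to 49.2, 46.7 and 47.4 TPM (log2 difference 0.44 ± 0.061 SE, adjusted p = 0.000349). All 3 take part once the autophagosome forms. The kinase that starts autophagy, ULK1, fell from 44.5, 41 and 34.5 TPM to 25.6, 29.2 and 27.5 TPM (log2 difference -0.52 ± 0.11 SE, adjusted p = 0.00691). The 3 rises and the fall were each without overlap between the groups. WIPI1, which binds the growing membrane, rose too (36 ± 2.12 to 62.1 ± 4.93 TPM, adjusted p = 0.000446).

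Most genes listed for the integrated stress response rose. Among 26 genes of the integrated stress response tested, 17 rose, 2 fell and 7 were not called (median log2 difference 0.50). ATF4, the transcription factor at its centre, rose from 375, 357 and 364 TPM to 465, 432 and 465 TPM (log2 difference 0.31 ± 0.042 SE, adjusted p = 0.000264). DDIT3, or CHOP, rose from 24.1, 24.8 and 22.5 TPM to 67.6, 67.8 and 65.8 TPM (log2 difference 1.46 ± 0.071 SE, adjusted p = 5.71e-08). PPP1R15A, or GADD34, which reverses the phosphorylation of eIF2α, rose from 20.8, 23.4 and 21.3 TPM to 63.2, 65.5 and 66.6 TPM (log2 difference 1.54 ± 0.10 SE, adjusted p = 8.58e-07). All 3 had separate groups. TRIB3, a pseudokinase induced by ATF4 and CHOP, rose from 97.1, 93.7 and 106 TPM to 284, 277 and 286 TPM (log2 difference 1.5 ± 0.046 SE, adjusted p = 7.78e-10). CHAC1, which breaks down glutathione, rose from 16.4, 14.6 and 14.2 TPM to 37, 34.9 and 35.3 TPM (log2 difference 1.20 ± 0.099 SE, adjusted p = 5.04e-06). ATF3, a stress transcription factor, rose from 5.69, 7.25 and 5.36 TPM to 17.2, 15.8 and 15.6 TPM (log2 difference 1.28 ± 0.19 SE, adjusted p = 0.000502). The same held for these, as for the stress protein NUPR1 (22.3 ± 2.91 to 59.9 ± 3.72 TPM, adjusted p = 0.000137). The falls were CBS, an enzyme of cysteine synthesis (log2 difference -0.45 ± 0.11 SE, adjusted p = 0.0116, a call lost without LB DMSO replicate 1 or combined replicate 1, at 0.00453 to 0.0539 over the libraries left out), and EIF4EBP1, a brake on translation (log2 difference -0.18 ± 0.046 SE, adjusted p = 0.0157, a call lost without LB DMSO replicate 3 or combined replicate 3, at 0.0112 to 0.0686 over the libraries left out).

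Enzymes of serine, proline and one-carbon metabolism, several of them known ATF4 targets, had more falls than rises. Among 15 such enzymes tested, 1 rose (6.67%, all genes 10.2%), 5 fell (33.3%, all genes 7.90%) and 9 were not called (median log2 difference -0.16). The falls were 3 without LB DMSO replicate 1 or without combined replicate 3. PYCR1, the last enzyme of proline synthesis, fell from 141, 142 and 149 TPM to 106, 106 and 113 TPM (log2 difference -0.41 ± 0.052 SE, adjusted p = 0.00019). MTHFD1L, a mitochondrial folate enzyme, fell from 29.3, 31.5 and 31.8 TPM to 25.9, 24.6 and 21.1 TPM (log2 difference -0.36 ± 0.078 SE, adjusted p = 0.00684). ASNS, the asparagine synthetase, fell from 104, 101 and 101 TPM to 92.2, 87.6 and 79.9 TPM (log2 difference -0.24 ± 0.058 SE, adjusted p = 0.0141, a call lost without LB DMSO replicate 1 or combined replicate 3, at 0.0101 to 0.0606 over the libraries left out). The groups did not overlap in these 3. The falls of ALDH18A1, of proline synthesis, and PSPH, of serine synthesis, had log2 differences of -0.29 and -0.28, and the call of PSPH was lost without LB DMSO replicate 1 or combined replicate 3 (adjusted p 0.0093 to 0.0512 over the libraries left out). The 1 rise, of the aspartate aminotransferase GOT1, was lost in 9 of the 12 fits with a library left out. Among 12 amino acid transporter genes tested, 3 rose (25%, all genes 10.2%) and 9 were not called (median log2 difference 0.10). The rises were SLC6A6, a taurine transporter, and SLC38A1 and SLC38A2, glutamine transporters (adjusted p at most 0.00313).

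Chaperones moved little. Among 20 endoplasmic reticulum chaperone genes tested, 9 rose (45% against 10.2% of all genes) and 11 were not called (median log2 difference 0.20). HSPA5, or BiP, the main chaperone of that compartment, rose from 359, 338 and 366 TPM to 413, 393 and 425 TPM (log2 difference 0.21 ± 0.05 SE, adjusted p = 0.0113, a call lost without LB DMSO replicate 2 or combined replicate 3, at 0.00702 to 0.0517 over the libraries left out). HERPUD1, a part of its degradation machinery, rose from 51.5, 44.8 and 52.2 TPM to 68.4, 65.2 and 60.6 TPM (log2 difference 0.38 ± 0.068 SE, adjusted p = 0.0021). Among 23 heat shock genes tested, 6 rose (26.1%) and 17 were not called (median log2 difference 0.084), a number of rises that was 3 and 1 when LB DMSO replicates 1 and 2 were left out, and 2 and 1 when combined replicates 1 and 3 were. HSPB8, a small heat shock protein, rose from 10.6, 13.4 and 9.25 TPM to 22.6, 23.4 and 22 TPM (log2 difference 0.98 ± 0.12 SE, adjusted p = 0.000173). In the 3 genes named the groups did not overlap. HSPA1A and HSPA1B are nearly identical, so how reads were divided between them is uncertain.

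**Figure D3:**
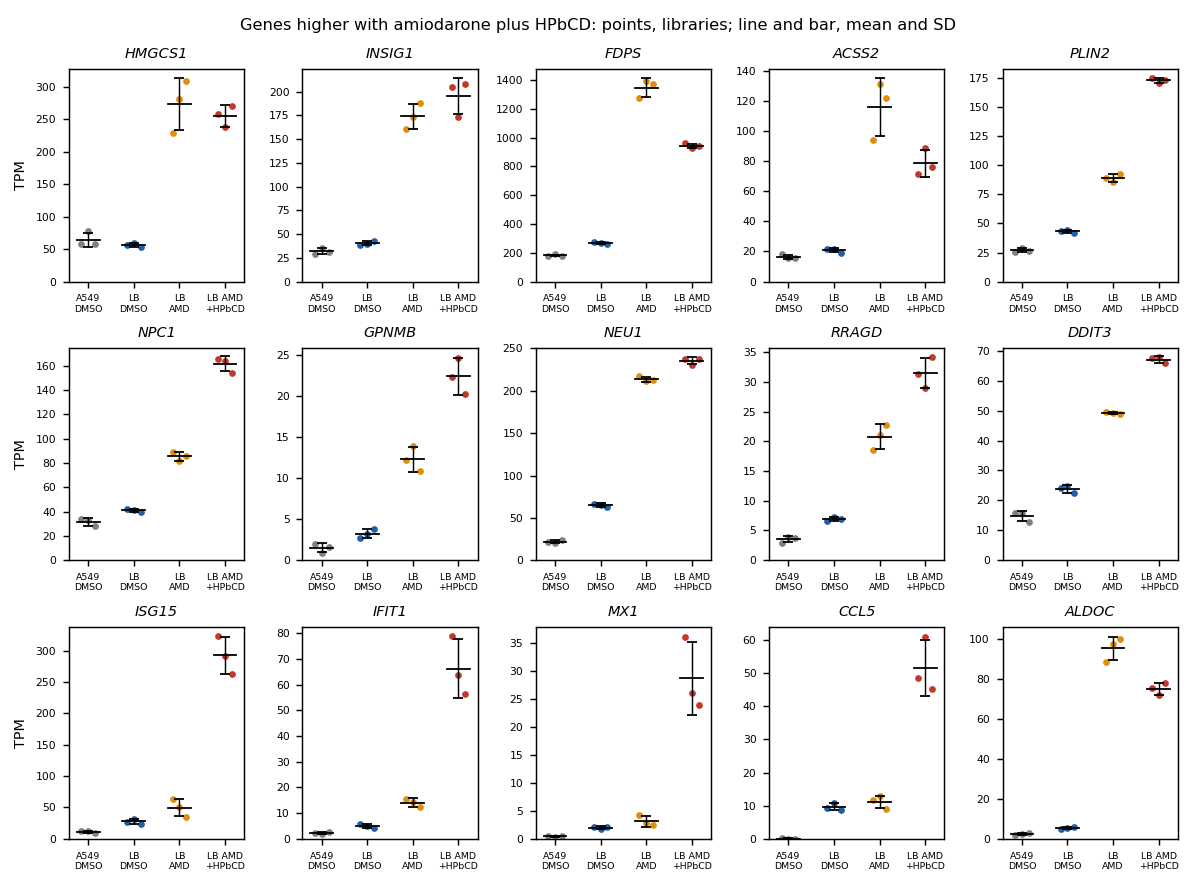
TPM in each library (vertical axes, 1 panel a gene) of 15 genes that rose, in A549 DMSO, LB DMSO, LB amiodarone and the combined treatment, with points for libraries and a line and bar for the mean and SD of 3. The panels are a selection and not the 15 largest rises. In every panel the 3 combined points lie above the 3 LB DMSO points, which the naming rule required of those that are among the 15 largest rises.

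The largest group rise beside cholesterol synthesis was in interferon-stimulated genes, which encode antiviral proteins. Among 42 interferon-stimulated genes tested, 37 rose and 5 were not called (median log2 difference 1.31), 30 of them at least 2-fold. The 5 not past the test were GBP3, IFITM2, IFITM3, ISG20 and SAMD9L, and RSAD2, EPSTI1, XAF1, GBP1 and GBP2 were below 1 TPM on average and not tested. IFIT1 (chr10:89392546-89406486, plus strand), which binds foreign RNA caps, rose from 5.62, 4.91 and 4.36 TPM to 78.7, 63.6 and 56.2 TPM (log2 difference 3.49 ± 0.15 SE, adjusted p = 1.75e-08). ISG15 (chr1:1001138-1014540, plus strand), a ubiquitin-like modifier, rose from 26.8, 31.9 and 24.5 TPM to 323, 291 and 263 TPM (log2 difference 3.35 ± 0.19 SE, adjusted p = 1.5e-07). MX1 (chr21:41420304-41459214, plus strand), an antiviral GTPase, rose from 2.16, 1.8 and 2.12 TPM to 36.2, 26.1 and 23.9 TPM (log2 difference 3.28 ± 0.18 SE, adjusted p = 1.3e-07). All 3 were low or moderate in each vehicle library and many times higher in each combined library. IFIT3, a partner of IFIT1, rose from 4.08, 4.44 and 3.6 TPM to 45.9, 41.8 and 37.9 TPM (log2 difference 3.09 ± 0.11 SE, adjusted p = 2.42e-09). IFI27, a mitochondrial interferon-induced protein, rose from 7.7, 6.83 and 4.95 TPM to 88, 52.1 and 49.2 TPM (log2 difference 3.06 ± 0.28 SE, adjusted p = 1.17e-05). OASL, of the oligoadenylate synthetase family, rose from 4.07, 5.4 and 4.4 TPM to 38.2, 43.3 and 39.3 TPM (log2 difference 2.88 ± 0.12 SE, adjusted p = 1.7e-08). The combined libraries stood apart in these as well. IFI6 (16.7 ± 1.83 to 127 ± 35.1 TPM), IFIT2 (2.93 ± 0.381 to 27.4 ± 2.6 TPM) and IFI44 (1.62 ± 0.391 to 16 ± 2.12 TPM) rose likewise (adjusted p at most 3.62e-06). APOL1, an apolipoprotein that interferon induces, rose from 3.25, 3.48 and 2.68 TPM to 23.1, 24 and 16.5 TPM (log2 difference 2.41 ± 0.14 SE, adjusted p = 2.55e-07).

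Sensors and transmitters of the interferon response were among the members that rose. The RNA sensors DDX58 (2.18 ± 0.071 to 11.9 ± 1.68 TPM), or RIG-I, and IFIH1 (0.563 ± 0.098 to 5 ± 0.694 TPM), or MDA5, rose (adjusted p at most 8.52e-06). So did IRF7 (6.12 ± 0.774 to 29 ± 2.14 TPM) and IRF9 (23.6 ± 4.22 to 59.6 ± 4.17 TPM), transcription factors of the response, and STAT2 (11.5 ± 0.473 to 21.4 ± 1.46 TPM), a signal carrier (adjusted p at most 0.000104). In all 5 the combined libraries lay above the LB DMSO libraries. Of the list, the number that rose was 36 to 39 with any 1 library left out. Its median log2 difference was 1.87 with a pseudocount of 0.1 and 0.84 with a pseudocount of 5, since several members were low in vehicle.

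Promoters of interferon-stimulated genes are shown because the members rose together and most of those with a promoter held a well-known element. The interferon-stimulated response element, searched on both strands as GAAA, any 2 bases and GAAA again, was present in the 300-base promoter of 21 of the 32 members with a RefSeq promoter (65.6%) against 3.65% of all promoters and 2.73% of those of tested genes. In the 160 bases before the start that follow, 5′ to 3′ on the gene's strand, capitals mark the element or its reverse complement. The windows (GRCh38.p14) are chr10:89392463-89392622, plus strand, for IFIT1, chr1:1013337-1013496, plus strand, for ISG15, and chr10:89327837-89327996, plus strand, for IFIT3.
IFIT1: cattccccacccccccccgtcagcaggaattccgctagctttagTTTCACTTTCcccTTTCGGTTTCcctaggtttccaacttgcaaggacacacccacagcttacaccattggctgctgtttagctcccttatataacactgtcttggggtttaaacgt
ISG15: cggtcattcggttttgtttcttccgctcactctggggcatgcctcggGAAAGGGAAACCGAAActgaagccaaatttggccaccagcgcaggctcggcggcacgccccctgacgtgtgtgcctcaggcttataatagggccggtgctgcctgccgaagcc
IFIT3: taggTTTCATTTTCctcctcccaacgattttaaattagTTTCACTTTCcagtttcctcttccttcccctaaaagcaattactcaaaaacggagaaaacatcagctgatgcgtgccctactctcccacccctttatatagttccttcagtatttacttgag
IFIT1 held matches starting at -116 and -103 from the RefSeq start, ISG15 overlapping ones at -113 and -107, and IFIT3 at -156 and -122. MX1, with a larger difference than IFIT3, is not printed: its 1 match starts at 11, and the 160 bases before its start held 0. A match is a description of these letters and not a measured binding site. For the integrated stress response the C/EBP-ATF response element, written TGATGNAA, was searched on both strands. It was present in 2 of 24 promoters (8.33%), against 3.67% of all promoters and 1.51% of those of tested genes. PPP1R15A, TRIB3 and DDIT3 held 0.

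Antigen presentation and inflammatory mediators rose beside them. Among 15 genes of MHC class I and peptide loading tested, 10 rose and 5 were not called (median log2 difference 0.41). B2M, the light chain of MHC class I, rose from 478, 483 and 479.9 TPM to 841, 784 and 793 TPM (log2 difference 0.75 ± 0.055 SE, adjusted p = 1.77e-06). HLA-B, a heavy chain, rose from 12.4, 14.1 and 14.3 TPM to 30.6, 30.2 and 27.7 TPM (log2 difference 1.07 ± 0.077 SE, adjusted p = 1.56e-06), a value made uncertain by its close relatives. Among 22 genes of cytokines and inflammatory mediators tested, 15 rose and 7 were not called (median log2 difference 0.58). CCL5 (chr17:35871491-35880793, minus strand), a chemokine that draws T cells, rose from 9.45, 10.8 and 8.81 TPM to 48.4, 61 and 45.2 TPM (log2 difference 2.29 ± 0.14 SE, adjusted p = 3.52e-07). IL6, the pleiotropic cytokine, rose from 0.96, 1.6 and 0.81 TPM to 8.87, 4.8 and 6.26 TPM (log2 difference 1.83 ± 0.19 SE, adjusted p = 4.41e-05). PTGS2, or COX-2, which makes prostaglandins, rose from 137, 139 and 149.6 TPM to 402, 399 and 421 TPM (log2 difference 1.52 ± 0.15 SE, adjusted p = 2.14e-05). In all 5 genes named the groups were separate. ICAM1, a leukocyte adhesion molecule, rose from 3.85, 3.99 and 5.31 TPM to 11.8, 17.9 and 12.5 TPM (log2 difference 1.47 ± 0.28 SE, adjusted p = 0.0028). CXCL8, a neutrophil chemokine, rose from 1.28, 1.26 and 1.44 TPM to 2.99, 3.49 and 2.74 TPM (log2 difference 0.80 ± 0.17 SE, adjusted p = 0.00577), at a low level. The interferon-induced chemokines CXCL10 and CXCL11 stayed at or below 0.26 TPM in all 12 libraries.

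Early response genes rose too. Among 30 genes of growth factor ligands and the early response to them tested, 15 rose, 1 fell and 14 were not called (median log2 difference 0.36). DUSP5, a phosphatase of the ERK pathway, rose from 21.6, 24.7 and 21.5 TPM to 69.7, 66.6 and 57 TPM (log2 difference 1.47 ± 0.1 SE, adjusted p = 8.58e-07). JUN, a part of AP-1, rose from 9.87, 12.6 and 9.72 TPM to 21.8, 24.8 and 20.4 TPM (log2 difference 0.99 ± 0.21 SE, adjusted p = 0.00581). DUSP1, a phosphatase of stress kinases, rose from 58.8, 57 and 51.8 TPM to 106, 90.6 and 86.3 TPM (log2 difference 0.74 ± 0.13 SE, adjusted p = 0.00177). These had no overlap between the groups. FOSL1, another part of AP-1, rose from 20.6, 28.2 and 24.6 TPM to 55.6, 52.4 and 52.4 TPM (log2 difference 1.11 ± 0.34 SE, adjusted p = 0.0433, a call lost without LB DMSO replicates 1, 2 or 3, LB amiodarone replicates 1, 2 or 3 or combined replicates 1, 2 or 3, at 1.6e-05 to 0.132 over the libraries left out). ERBB2, the receptor HER2, was the 1 member that fell (log2 difference -0.46 ± 0.081 SE, adjusted p = 0.00211).

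Glycolysis and hypoxia genes rose in large part. ALDOC (chr17:28573115-28577264, minus strand), a form of aldolase known mainly from brain, rose from 4.84, 5.35 and 6.03 TPM to 75.2, 71.9 and 77.7 TPM (log2 difference 3.57 ± 0.10 SE, adjusted p = 5.63e-10). This was the largest rise of any named gene on the log2(TPM + 1) scale, while as a ratio of mean TPM it was 13.9-fold and that of MX1 14.2-fold. Among 32 glycolysis and hypoxia genes tested, 24 rose, 1 fell and 7 were not called (median log2 difference 0.46). NDRG1, a stress gene known from hypoxia, rose from 8.69, 9.05 and 9.53 TPM to 38.4, 38.8 and 45.1 TPM (log2 difference 2.05 ± 0.10 SE, adjusted p = 6.42e-08). ENO2, the neuronal form of enolase, rose from 53.8, 47.9 and 43 TPM to 129, 148 and 149 TPM (log2 difference 1.54 ± 0.14 SE, adjusted p = 9.42e-06). BNIP3, a receptor for the removal of mitochondria, rose from 41.9, 45 and 46 TPM to 97.5, 86.1 and 101 TPM (log2 difference 1.08 ± 0.074 SE, adjusted p = 8.58e-07). Each of the 4 had its combined libraries above all vehicle libraries. PDK1 (2.07 ± 0.401 to 5.23 ± 0.078 TPM), which holds pyruvate from mitochondria, VEGFA (33.2 ± 0.845 to 51.4 ± 3.14 TPM), the vascular growth factor, and SLC2A1 (60.2 ± 1.6 to 90.5 ± 5.06 TPM), the glucose transporter GLUT1, also rose (adjusted p at most 0.00038). PFKFB3, which makes an activator of glycolysis, was the 1 that fell (log2 difference -0.44 ± 0.056 SE, adjusted p = 0.00019).

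The genes with the largest falls had varied roles. Of the 32 falls of at least 2-fold, 27 were protein-coding. HTRA3 (chr4:8269765-8307111, plus strand), a secreted serine protease, fell from 11.2, 10.8 and 13.4 TPM to 2.63, 2.23 and 2.77 TPM (log2 difference -1.85 ± 0.19 SE, adjusted p = 3.94e-05). H19 (chr11:1995176-2001470, minus strand), an imprinted long noncoding RNA, fell from 26.6, 30.6 and 37.4 TPM to 8.48, 8.59 and 12.6 TPM (log2 difference -1.59 ± 0.19 SE, adjusted p = 0.000126). CRIP2 (chr14:105472962-105480170, plus strand), a LIM-domain protein, fell from 115, 113 and 119.8 TPM to 48.8, 51.8 and 43.8 TPM (log2 difference -1.25 ± 0.08 SE, adjusted p = 4.95e-07). In all 3 each combined library lay below each vehicle library, as the naming rule required of the largest falls. COL26A1, a collagen, fell from 29.4, 29.9 and 26.1 TPM to 11.6, 13.2 and 10.2 TPM (log2 difference -1.22 ± 0.16 SE, adjusted p = 0.000261). SCG2, a granin of secretory granules, fell from 16.3, 16 and 17.1 TPM to 7.08, 6.53 and 6.58 TPM (log2 difference -1.18 ± 0.088 SE, adjusted p = 2.14e-06). BCAM, a laminin receptor of the cell surface, fell from 64.4, 59.9 and 56.7 TPM to 25.9, 28.6 and 27.6 TPM (log2 difference -1.11 ± 0.097 SE, adjusted p = 8.4e-06). The groups were separate here too, by the same rule. CHRDL2, an antagonist of bone morphogenetic proteins, fell from 7.09, 5.05 and 7.61 TPM to 2.05, 2.01 and 2.8 TPM (log2 difference -1.20 ± 0.16 SE, adjusted p = 0.00024). DBP, a transcription factor of the circadian clock, fell from 10.6, 9.86 and 11 TPM to 4.74, 3.86 and 4.41 TPM (log2 difference -1.11 ± 0.20 SE, adjusted p = 0.00225). TPPP3, which binds tubulin (17.1 ± 1.97 to 7.13 ± 1.18 TPM), MYCBP, which binds MYC (21.5 ± 1.35 to 9.28 ± 1.97 TPM), and ZNF467, a zinc finger gene (7.88 ± 0.734 to 3.13 ± 0.188 TPM), fell by a like amount (adjusted p at most 0.00935).

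The 3 chains of fibrinogen, the clotting protein made in the acute phase, fell together. FGB (chr4:154562956-154571086, plus strand), for the beta chain, fell from 193, 204 and 215 TPM to 79.7, 98 and 77.5 TPM (log2 difference -1.26 ± 0.24 SE, adjusted p = 0.00358). FGA, for the alpha chain, fell from 75.2, 85.8 and 80.8 TPM to 33.8, 38.6 and 34.8 TPM (log2 difference -1.15 ± 0.24 SE, adjusted p = 0.00507). FGG, for the gamma chain, fell from 113, 126 and 124 TPM to 52.5, 60.4 and 55.9 TPM (log2 difference -1.09 ± 0.26 SE, adjusted p = 0.0127). All 9 combined values lay below the vehicle values of the same chain. Among 14 acute phase and coagulation genes tested, 2 rose (14.3%, all genes 10.2%), 3 fell (21.4%, all genes 7.90%) and 9 were not called (median log2 difference 0.15). The rises were C1R, a complement protease, and TFPI, a clotting inhibitor, and either call was lost with single libraries left out (C1R at 0.0138 to 0.0832 without LB DMSO replicates 2 or 3 or combined replicates 1 or 2 among others, and TFPI at 0.00502 to 0.15, lost in 10 of the 12 fits).

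Matrix and adhesion genes went both ways. Among 29 genes of collagens, laminins and matrix proteases tested, 5 rose (17.2%), 4 fell (13.8%) and 20 were not called (median log2 difference -0.0012). MMP2, a gelatinase, fell from 11.8, 12.2 and 10.7 TPM to 4.74, 5.4 and 5.16 TPM (log2 difference -1.04 ± 0.10 SE, adjusted p = 2.75e-05). COL5A1, a fibrillar collagen chain, fell from 14.3, 10.8 and 12.6 TPM to 5.45, 5.41 and 5.85 TPM (log2 difference -1.04 ± 0.094 SE, adjusted p = 1.12e-05). FN1, fibronectin, fell from 16.3, 16.8 and 14.8 TPM to 9.25, 11.8 and 9.6 TPM (log2 difference -0.60 ± 0.11 SE, adjusted p = 0.00184). These were separate in every library. PLAT, the tissue plasminogen activator, rose from 0.61, 1.1 and 0.76 TPM to 1.94, 1.78 and 2.65 TPM (log2 difference 0.78 ± 0.15 SE, adjusted p = 0.00432). It was higher in the combined libraries, from a low level. CDH1, or E-cadherin, the adhesion protein of epithelia, fell from 16.6, 16.8 and 14.9 TPM to 7.29, 11.4 and 8.45 TPM (log2 difference -0.78 ± 0.16 SE, adjusted p = 0.00447). SNAI1, a repressor of CDH1 in mesenchymal transition, fell from 8.81, 7.71 and 10.6 TPM to 5.07, 4.14 and 5.51 TPM (log2 difference -0.76 ± 0.16 SE, adjusted p = 0.00594). The keratin KRT19 rose from 50.04, 59 and 45.1 TPM to 116, 132 and 99.2 TPM (log2 difference 1.15 ± 0.16 SE, adjusted p = 0.000445). Of 17 mesenchymal transition genes 3 rose (17.6%) and 3 fell (17.6%), and of 22 keratin and junction genes 2 rose and 3 fell, with medians of 0.081 and -0.012. The keratin and junction shares (9.09% and 13.6%) lay near those of all genes (10.2% and 7.90%), and the 2 rises were 1 without LB DMSO replicates 1 or 2 or combined replicates 1 or 2, and the 3 falls 1 without combined replicate 3.

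Notch pathway genes went both ways. LFNG, a sugar transferase that tunes Notch receptors, fell from 5.49, 6.31 and 6.2 TPM to 1.64, 2.05 and 2.59 TPM (log2 difference -1.19 ± 0.12 SE, adjusted p = 3.58e-05). NOTCH3, a receptor, fell from 7.05, 7.56 and 6.74 TPM to 3.51, 3.67 and 3.78 TPM (log2 difference -0.80 ± 0.14 SE, adjusted p = 0.00225). HES1, a main target of the pathway, fell from 13.4, 13.3 and 13.4 TPM to 7.22, 8.17 and 7.38 TPM (log2 difference -0.75 ± 0.078 SE, adjusted p = 4.08e-05). A modifier, a receptor and a target of the pathway fell in these. The ligand DLL4 rose from 1.06, 0.68 and 0.69 TPM to 3.63, 3.64 and 3.63 TPM (log2 difference 1.36 ± 0.14 SE, adjusted p = 2.73e-05), from a low level. All 4 were without overlap. Among 14 Notch pathway genes tested, 3 rose (21.4%, all genes 10.2%), 4 fell (28.6%, all genes 7.90%) and 7 were not called (median log2 difference -0.013). CYP24A1, which breaks down active vitamin D, fell from 461, 442 and 418 TPM to 216, 243 and 214 TPM (log2 difference -0.97 ± 0.11 SE, adjusted p = 5.53e-05). SULT2B1, which adds sulfate to cholesterol and steroids, fell from 13.8, 12.9 and 13.5 TPM to 5.44, 6.33 and 4.39 TPM (log2 difference -1.19 ± 0.22 SE, adjusted p = 0.00262). Both stand in the list of 21 xenobiotic metabolism genes, in which 5 rose and 4 fell.

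**Figure D4:**
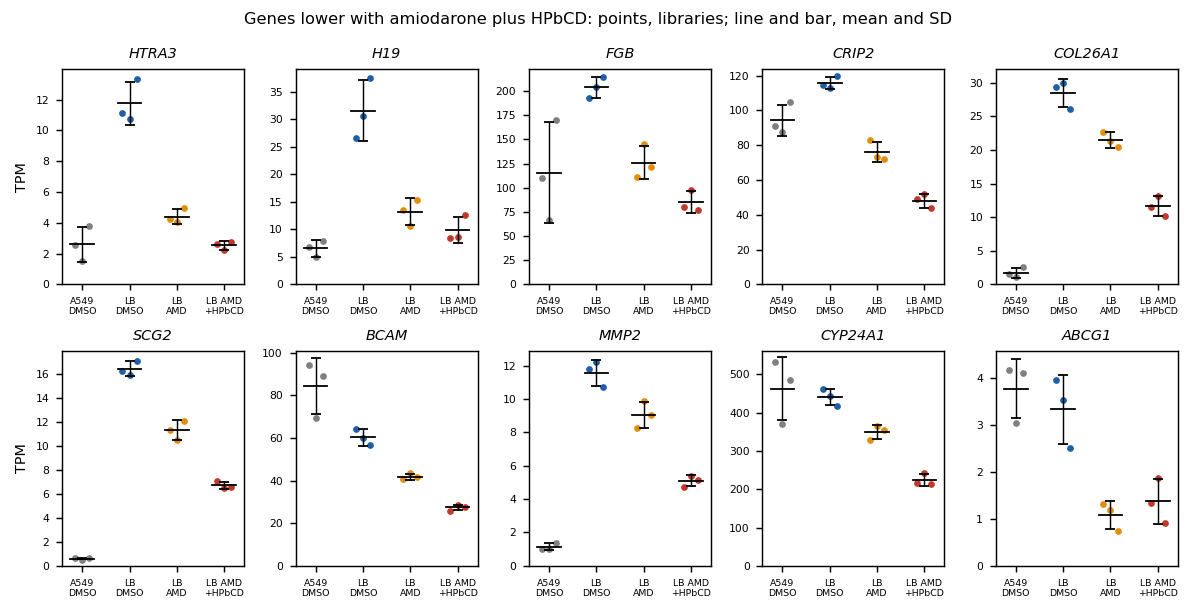
TPM in each library (vertical axes, 1 panel a gene) of 10 genes that fell, in A549 DMSO, LB DMSO, LB amiodarone and the combined treatment, with points for libraries and a line and bar for the mean and SD of 3. The 3 combined points lie below the 3 LB DMSO points in every panel.

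Cell cycle genes were lower by small amounts. Among 48 cell cycle and DNA replication genes tested, 27 fell and 21 were not called (median log2 difference -0.29), and 19 to 28 fell with any 1 library left out. MCM5, a subunit of the replication helicase, fell from 124, 118 and 131 TPM to 88.1, 80.5 and 78.4 TPM (log2 difference -0.59 ± 0.066 SE, adjusted p = 7.1e-05). PLK1, a mitotic kinase, fell from 106, 94.6 and 104 TPM to 70.8, 70.3 and 70.4 TPM (log2 difference -0.51 ± 0.065 SE, adjusted p = 0.000182). CDC20, an activator of the anaphase-promoting complex, fell from 124, 119 and 120.0 TPM to 87.5, 85.6 and 90.0 TPM (log2 difference -0.46 ± 0.075 SE, adjusted p = 0.00117). These 3 were separate between the groups. FOXM1, a transcription factor of mitotic genes, fell from 75.1, 69.8 and 72 TPM to 55.8, 51.7 and 55.2 TPM (log2 difference -0.41 ± 0.075 SE, adjusted p = 0.0025). MKI67, the proliferation marker Ki-67, fell from 50.7, 34.6 and 47 TPM to 34.9, 34 and 29.1 TPM (log2 difference -0.41 ± 0.12 SE, adjusted p = 0.0396, a call lost without LB DMSO replicates 1 or 3, LB amiodarone replicate 1 or combined replicates 1, 2 or 3, at 0.00323 to 0.154 over the libraries left out), and its groups overlapped. In bulk samples fewer dividing cells and less RNA of these genes per cell cannot be told apart. CDKN1A, or p21, an inhibitor of the cycle, was at 178, 216 and 152 TPM and 228, 273 and 192 TPM (log2 difference 0.34 ± 0.18 SE, adjusted p = 0.203).

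Calls in mitochondrial, ribosomal and histone lists were mainly falls, 7.69% to 14.7% of each list against 7.90% of all genes. Among 75 nuclear genes of the respiratory chain tested, 2 rose, 11 fell and 62 were not called (median log2 difference -0.028). The falls were 14.7% of the list, 6 or 7 genes without any 1 of the 6 compared libraries, and the rises were 0 without LB DMSO replicate 1 or combined replicates 1 or 3 and 1 without LB amiodarone replicates 2 or 3 or combined replicate 2. NDUFV1, of complex I, fell from 213, 199.8 and 191 TPM to 159.8, 171 and 158 TPM (log2 difference -0.30 ± 0.071 SE, adjusted p = 0.0104). ATP5F1D, of the ATP synthase, fell from 119, 121 and 121 TPM to 96.5, 106 and 99.7 TPM (log2 difference -0.25 ± 0.045 SE, adjusted p = 0.00221). Among 13 mitochondrially encoded genes tested, 1 fell and 12 were not called (median log2 difference -0.21), and 2 fell without A549 DMSO replicate 3. MT-CO3, of complex IV, fell from 10209, 9899 and 8298 TPM to 4836, 6326 and 6086 TPM (log2 difference -0.72 ± 0.18 SE, adjusted p = 0.0133, a call lost without LB DMSO replicates 1 or 2 or combined replicate 1, at 0.00599 to 0.0625 over the libraries left out). These 3 had separate groups, MT-CO3 with the wider spread. Of 78 mitochondrial ribosomal protein genes 3 rose and 10 fell (12.8%), with 6, 5, 4 and 6 falls without LB DMSO replicates 2 and 3 and combined replicates 1 and 2. Of 73 cytosolic ribosomal protein genes 7 fell (9.59%), 4 without LB DMSO replicates 1 or 3 or any combined replicate, and 19 when mitochondrially encoded genes were removed and the rest rescaled, so this count moved with the scaling. Of 39 histone genes 5 fell (12.8%), 3, 2 and 2 without LB DMSO replicates 1 and 2 and combined replicate 1. Most histone messages lack the poly(A) tail that mRNA libraries select, and ribosomal protein and histone genes have near-identical copies, so both lists are uncertain.

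Surfactant genes did not pass the test. In the list of 6 surfactant and lamellar body genes tested, limma called 0 as risen and 0 as fallen, with 0 higher and 1 lower at an unadjusted p under 0.05 (median log2 difference 0.011). ABCA3, the lipid transporter of lamellar bodies, was at 350.2, 279.6 and 312 TPM and 275, 277 and 281 TPM (log2 difference -0.17 ± 0.073 SE, adjusted p = 0.126). SFTPB, for surfactant protein B, was at 245, 264 and 232 TPM and 238, 277 and 231 TPM (log2 difference 0.0066 ± 0.073 SE, adjusted p = 0.964). SFTPD, for surfactant protein D, was at 289.6, 321 and 289 TPM and 298, 349 and 280.1 TPM (log2 difference 0.039 ± 0.092 SE, adjusted p = 0.814). In all 3 the groups overlapped. ABCA3 passed the test as a fall without LB DMSO replicate 2 (adjusted p = 0.0285) and with quantile normalization (adjusted p = 0.0352). Its adjusted p lay between 0.0285 and 0.419 over the alternatives.

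Markers of cell types were mainly those of epithelial cells. The 5 epithelial markers summed to 2894 to 3224 TPM in LB DMSO and 2561 to 2956 in the combined treatment, and the 10 alveolar type II markers to 1388 to 1551 and 1345 to 1606, carried by surfactant genes and ABCA3, while SFTPA1 was at 0 in all 3 libraries of both groups and LAMP3 and SLC34A2 below 1 TPM. Of the 6 alveolar type I markers PDPN, HOPX and AQP5 were at 0 in both groups, and the sum was 184 to 220 and 153 to 177 TPM. The 6 leukocyte markers summed to 30.1 to 31.1 TPM in LB DMSO and 83.7 to 87.5 in the combined treatment, carried by CD68, which lysosomes of other cells also hold, with CD3E at 0 and PTPRC, which marks all leukocytes, at most 0.01 TPM. CD14, another of them, fell from 2.98, 2.28 and 2.27 TPM to 0.89, 0.79 and 1.04 TPM (log2 difference -0.88 ± 0.21 SE, adjusted p = 0.012, a call lost without LB DMSO replicate 1, at 0.0033 to 0.0519 over the libraries left out). The 7 fibroblast markers summed to 11.3 to 11.8 and 6.56 to 7.43 TPM, most of it COL1A1, which fell from 8.4, 8.13 and 8.61 TPM to 2.6, 3.78 and 4.33 TPM (log2 difference -1.06 ± 0.17 SE, adjusted p = 0.00102). The 5 endothelial markers summed to 0.16 to 0.42 and 0.25 to 0.89 TPM.

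Set beside amiodarone alone, with which it shares the LB DMSO libraries as reference, the combined treatment had more calls. Amiodarone alone against LB DMSO gave 690 rises (4.98%) and 528 falls (3.81%), 1218 in all (8.79%), 78 (0.563%) and 7 (0.0505%) of them at least 2-fold. Over single libraries left out the 1218 ranged from 637 to 1503, and it was 690, 759 and 637 without LB DMSO replicates 1, 2 and 3 and 693 and 726 without LB amiodarone replicates 2 and 3. The direct test of the combined treatment against amiodarone alone gave 391 rises (2.82%) and 192 falls (1.39%), 583 in all (4.21%), 49 (0.354%) and 2 (0.0144%) of them at least 2-fold. This count was 351, 335 and 307 without LB amiodarone replicates 1, 2 and 3 and 289, 346 and 310 without combined replicates 1, 2 and 3. Of the 1420 genes that rose against vehicle, 330 were higher in the direct test, 23 were lower and 1067 did not pass it.

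Some cholesterol and fatty acid synthesis genes were lower in the combined treatment than with amiodarone alone. With the drug alone 19 of 21 cholesterol synthesis genes rose against LB DMSO (median log2 difference 1.62), and in the direct test 9 of the 21 were lower in the combined treatment, 6 to 9 with any 1 library left out. FDPS, given above for vehicle and combined libraries, was at 1273, 1395 and 1375 TPM with amiodarone alone (combined minus amiodarone, log2 difference -0.51 ± 0.045 SE, adjusted p = 4.52e-05). MVD was at 219, 253 and 242 TPM with amiodarone alone (combined minus amiodarone, log2 difference -0.44 ± 0.055 SE, adjusted p = 0.00074). HMGCS1 was at 229, 282 and 309 TPM with amiodarone alone (combined minus amiodarone, log2 difference -0.088 ± 0.12 SE, adjusted p = 0.766). FDPS and MVD were thus lower with HPbCD than without it, and HMGCS1 did not pass. ACSS2 was at 94, 131 and 122 TPM with amiodarone alone (combined minus amiodarone, log2 difference -0.54 ± 0.12 SE, adjusted p = 0.0233, a call lost without LB amiodarone replicates 2 or 3 or combined replicates 1 or 3, at 0.00512 to 0.103 over the libraries left out). Of the 18 fatty acid synthesis genes 6 were lower in the direct test, 3 without LB amiodarone replicates 2 or 3 or combined replicates 1 or 3.

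Interferon-stimulated genes were the list with the most genes higher in the combined treatment than with amiodarone alone. In the direct test 38 of 42 were higher (median log2 difference 1.16), 33 to 38 with any 1 library left out. Amiodarone alone against LB DMSO gave 10 rises in this list, 6 without LB DMSO replicate 3. ISG15 was at 63.7, 50.7 and 35.3 TPM with amiodarone alone (combined minus amiodarone, log2 difference 2.56 ± 0.19 SE, adjusted p = 1.12e-05). MX1 was at 4.27, 2.76 and 2.42 TPM with amiodarone alone (combined minus amiodarone, log2 difference 2.84 ± 0.18 SE, adjusted p = 6e-06). IFI27 was at 9.97, 4.86 and 5.89 TPM with amiodarone alone (combined minus amiodarone, log2 difference 3.02 ± 0.28 SE, adjusted p = 6.78e-05). With amiodarone alone against LB DMSO, ISG15 rose (log2 difference 0.79 ± 0.19 SE, adjusted p = 0.0217, a call lost without LB DMSO replicates 1 or 3 or LB amiodarone replicates 1 or 2, at 0.00396 to 0.0893 over the libraries left out), and MX1 (log2 difference 0.43 ± 0.18 SE, adjusted p = 0.164) and IFI27 (log2 difference 0.043 ± 0.28 SE, adjusted p = 0.952) did not pass. IFIT1 was at 15.6, 14.3 and 12.2 TPM with amiodarone alone (combined minus amiodarone, log2 difference 2.15 ± 0.15 SE, adjusted p = 8.23e-06). CCL5 was at 11.7, 12.8 and 9.11 TPM with amiodarone alone (combined minus amiodarone, log2 difference 2.11 ± 0.14 SE, adjusted p = 6.56e-06). Of 22 cytokine and inflammatory genes 11 were higher in the direct test, 6 without LB amiodarone replicates 1 or 2 or combined replicates 1 or 3 and 7 without combined replicate 2. Of 30 growth factor and early response genes 13 were, and 5 without combined replicate 1, 6 without LB amiodarone replicate 2 or combined replicate 2 and 7 without LB amiodarone replicates 1 or 3 or combined replicate 3.

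NPC1, GPNMB and the droplet coat PLIN2 stood between their vehicle and combined levels with amiodarone alone. NPC1 was at 89.3, 81.6 and 85.5 TPM with amiodarone alone (combined minus amiodarone, log2 difference 0.91 ± 0.068 SE, adjusted p = 1.27e-05). GPNMB was at 12.2, 13.9 and 10.9 TPM with amiodarone alone (combined minus amiodarone, log2 difference 0.82 ± 0.16 SE, adjusted p = 0.0134, a call lost without LB amiodarone replicate 3 or combined replicates 1 or 2, at 0.00268 to 0.0626 over the libraries left out). PLIN2 was at 89.5, 85.6 and 92.6 TPM with amiodarone alone (combined minus amiodarone, log2 difference 0.95 ± 0.054 SE, adjusted p = 6e-06). All 3 were higher in the combined treatment than with the drug alone. NEU1 was at 217, 211 and 213 TPM with amiodarone alone (combined minus amiodarone, log2 difference 0.14 ± 0.049 SE, adjusted p = 0.151), with no call. Of 27 lysosomal membrane genes 7 were higher in the direct test, 4 without LB amiodarone replicate 3 or combined replicates 1 or 2, and of 45 lysosomal enzymes 7, with 5 to 8 over the libraries left out.

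Of the 1095 genes that fell against vehicle, 109 were also lower than with amiodarone alone in the direct test, and 986 did not pass it. COL26A1, TPPP3 and NOTCH3 were among the 109. COL26A1 was at 22.7, 21.3 and 20.4 TPM with amiodarone alone (combined minus amiodarone, log2 difference -0.83 ± 0.16 SE, adjusted p = 0.013, a call lost without LB amiodarone replicate 1 or combined replicates 1 or 3, at 0.00126 to 0.0631 over the libraries left out). TPPP3 was at 13.3, 14.9 and 15.1 TPM with amiodarone alone (combined minus amiodarone, log2 difference -0.93 ± 0.14 SE, adjusted p = 0.00242). NOTCH3 was at 8.34, 5.86 and 7.13 TPM with amiodarone alone (combined minus amiodarone, log2 difference -0.79 ± 0.14 SE, adjusted p = 0.00924). HTRA3 was at 4.22, 4.03 and 4.96 TPM with amiodarone alone (combined minus amiodarone, log2 difference -0.61 ± 0.19 SE, adjusted p = 0.112), and MYCBP at 8.78, 4.98 and 14.4 TPM with amiodarone alone (combined minus amiodarone, log2 difference 0.07 ± 0.26 SE, adjusted p = 0.93), neither past the test. In cell cycle genes the direct test called 0 of 48 in either direction, with 2 higher and 3 lower at an unadjusted p under 0.05, and amiodarone alone against LB DMSO gave 25 falls, 16 with LB DMSO replicate 3 left out and 15 with LB amiodarone replicate 2 left out. ASNS was at 131, 131 and 139 TPM with amiodarone alone (combined minus amiodarone, log2 difference -0.62 ± 0.058 SE, adjusted p = 6.85e-05). PSPH was at 63.1, 56.6 and 62.2 TPM with amiodarone alone (combined minus amiodarone, log2 difference -0.63 ± 0.066 SE, adjusted p = 0.000186). Both enzymes were at their highest mean with the drug alone. SFTPB was at 194, 212 and 193 TPM with amiodarone alone (combined minus amiodarone, log2 difference 0.31 ± 0.073 SE, adjusted p = 0.0327, a call lost without LB DMSO replicate 1, LB amiodarone replicates 1 or 3 or combined replicates 1 or 2, at 0.0294 to 0.119 over the libraries left out), and so was higher in the combined treatment than with the drug alone. The plot of lists by treatment shows these paths.

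**Figure D5:**
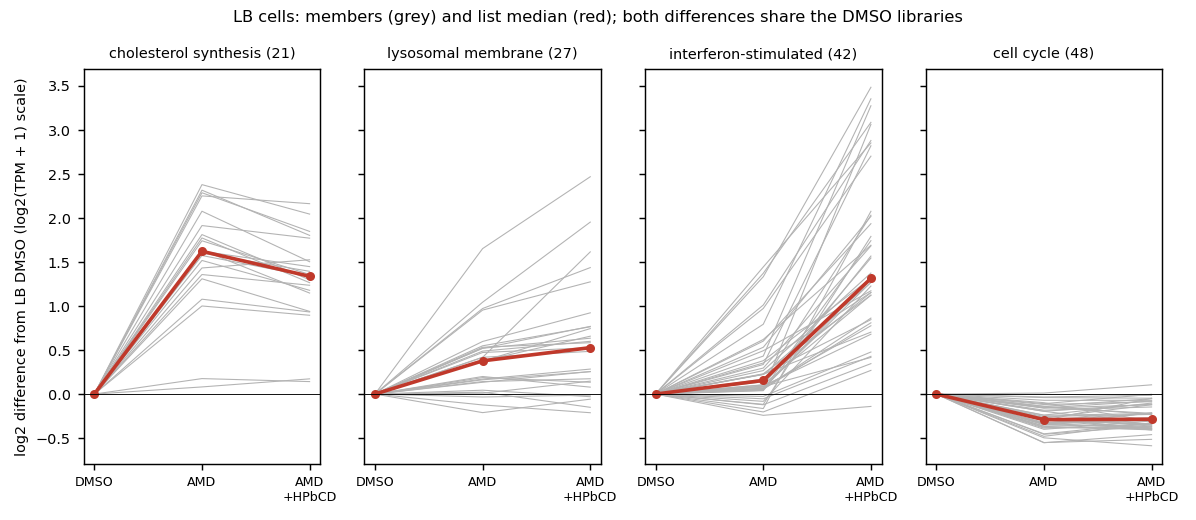
Log2 difference from LB DMSO (vertical axes) in LB DMSO, amiodarone alone and the combined treatment (horizontal), with 1 line a gene and the list median in red, for cholesterol synthesis (21 genes), lysosomal membrane (27), interferon-stimulated (42) and cell cycle genes (48). The interferon-stimulated median goes from 0.15 to 1.31, that of cholesterol synthesis from 1.62 to 1.34, and that of cell cycle genes is -0.29 in both.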

How the data were processed

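Stranded mRNA libraries of 12 samples were sequenced as pairs of 100 bp, per the labels' protocols. The authors deposited 1 table of TPM per gene symbol, and per the submitters' processing notes they used STAR 2.7.3a, RSEM 1.3.1 and GRCh38, with the annotation release not given in the sources used here. As TPM is scaled to a fixed total, strong rises push other genes down, and it holds no depth. RSEM divides reads shared by near-identical genes, whose values are therefore less certain.

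Of 57189 rows, 37 without values were left out. After log2(TPM + 1), with 1 as pseudocount, the 13855 genes averaging 1 TPM or more over the 6 compared libraries were fitted with limma 3.58.1 (R 4.3.3) over all 4 groups, with 8 residual degrees of freedom and a mean-variance trend, two-sided, with Benjamini-Hochberg adjustment at 0.05 within each comparison. The test was tried on simulated data. Symbols were matched to GENCODE 29 (13825 of the tested genes). Figures were drawn with matplotlib 3.10.9. 0 columns were left without a sample.

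The genes described and the 45 gene lists were chosen with earlier results of these data known. The naming rule took the 15 largest rises and 15 largest falls past the test whose groups did not overlap and whose higher mean reached 5 TPM, up to 4 members of each list with the largest difference past the test, and fixed genes of lipid, lysosome, stress and surfactant biology. For the largest rises and falls the separation of the groups was thus set by the rule. Pseudogenes and placeholder, antisense and small RNA names were passed over. Genes outside it (NPC2, DDX58, IFIH1, IRF7, IRF9, STAT2, PDK1, VEGFA, SLC2A1, AKR1C1, TXNRD1, and the lone or few members of a list that fell, rose or did not pass) were chosen after their values were seen. Some genes counted in the lists are not reported here by name. Other settings tried were a pseudocount of 0.1 or 5, a filter at 5 TPM or none, scaling by median of ratios, quantile normalization, removal of mitochondrially encoded genes, limma without trend, robust or with array weights, the 2 groups alone, the replicate number as a block, and each library left out.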

Additional observations from a re-analysis of the deposited data

How the results depend on the processing

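Of the 201 genes the naming rule took, 188 passed the test in the combined treatment against LB DMSO; 150 of these did so without any 1 library and 163 under every other alternative, and 0 reversed. The number of genes changed ranged from 1731 to 2858 with 1 library left out and from 2131 to 3295 under the other alternatives, that of rises from 1050 to 1588 and from 1260 to 1748, and that of falls from 681 to 1270 and from 871 to 1547. Against amiodarone alone the ranges were 289 to 841 and 413 to 852, and for amiodarone alone against LB DMSO 637 to 1503 and 875 to 1529. Rises made up 56.5% of calls, 60.4% with median-of-ratios scaling, 50% with quantile normalization and 48.9% without mitochondrially encoded genes. Whether the replicate numbers pair the samples is not settled here. Same-numbered LB DMSO and combined libraries correlated at 0.014, -0.004 and 0.029 in their deviations from group means. Same-numbered LB amiodarone and combined libraries correlated at 0.067, 0.223 and 0.039, and differently numbered ones at -0.137 to 0.073. Not every library correlated best with its own number. With the replicate block 2580 genes changed, 1441 of them rises, and 2350 calls were shared with the fit without it. TPM gives no depth, so low genes cannot be given a counting error, and 14 tested genes were at 0 in all 3 LB DMSO libraries.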

Other observations

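Genes of oxidative defence, metals and protein turnover are not described in the comparisons above. Among 29 NRF2 targets and glutathione genes tested, 5 rose (17.2%, all genes 10.2%), 7 fell (24.1%, all genes 7.90%) and 17 were not called (median log2 difference -0.085). The falls were 3, 4, 3, 2 and 3 without LB DMSO replicates 1, 2 and 3 and combined replicates 1 and 3, while the rises were 3 without combined replicates 2 or 3. HMOX1, or heme oxygenase, rose from 217, 205 and 190.2 TPM to 341, 325 and 296 TPM (log2 difference 0.65 ± 0.11 SE, adjusted p = 0.00189). TXN, or thioredoxin, rose from 1020.1, 1065 and 1084 TPM to 1426, 1381 and 1458 TPM (log2 difference 0.43 ± 0.056 SE, adjusted p = 0.000223). ALDH3A1, an aldehyde dehydrogenase, fell from 2553, 2884 and 2733 TPM to 1732, 2106 and 1753 TPM (log2 difference -0.55 ± 0.11 SE, adjusted p = 0.00446). In these 3 the groups did not overlap. NQO1, a quinone reductase and a common readout of NRF2, was at 2840.1, 3018 and 3237 TPM and 3283, 3124 and 3400.4 TPM (log2 difference 0.11 ± 0.077 SE, adjusted p = 0.359). AKR1C1, a reductase with near-identical relatives, was uncertain for that reason (log2 difference 0.38 ± 0.11 SE, adjusted p = 0.029, a call lost without LB DMSO replicate 1 or combined replicates 2 or 3, at 0.00713 to 0.117 over the libraries left out), and TXNRD1, the thioredoxin reductase, rose (log2 difference 0.35 ± 0.043 SE, adjusted p = 0.000145). MT2A, a metallothionein with close relatives, was the 1 of 7 metallothionein and zinc genes that passed (14.3% rose, all genes 10.2%). MT2A rose from 229, 209.8 and 222 TPM to 361, 357 and 374 TPM (log2 difference 0.72 ± 0.085 SE, adjusted p = 9.96e-05). Among 10 iron handling genes tested, 5 rose (50%, all genes 10.2%) and 5 were not called (median log2 difference 0.21). The rises were 3 without LB DMSO replicate 1 or combined replicate 3. TFRC, the transferrin receptor, rose from 113, 111 and 124 TPM to 152, 142 and 159 TPM (log2 difference 0.37 ± 0.066 SE, adjusted p = 0.00194). FTL, the ferritin light chain, rose from 25868, 25777 and 26766 TPM to 31713, 32258 and 31881 TPM (log2 difference 0.29 ± 0.058 SE, adjusted p = 0.00449), a value that its pseudogenes make uncertain.

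GDF15, a secreted stress cytokine, rose from 297, 311 and 281 TPM to 764, 765 and 719.5 TPM (log2 difference 1.34 ± 0.10 SE, adjusted p = 3.23e-06). It was listed with the p53 targets. Among 24 p53 targets tested, 5 rose (20.8%, all genes 10.2%), 2 fell (8.33%, all genes 7.90%) and 17 were not called (median log2 difference 0.15), with 1 fall without LB DMSO replicate 2 or combined replicate 3. TP53I3, a quinone oxidoreductase, fell from 121, 132 and 113 TPM to 81, 88.4 and 75.7 TPM (log2 difference -0.57 ± 0.083 SE, adjusted p = 0.000512). Among 21 xenobiotic metabolism genes tested, 5 rose, 4 fell and 12 were not called (median log2 difference -0.088), with 2 falls without LB DMSO replicates 2 or 3 or combined replicate 1. TIPARP, a target of the aryl hydrocarbon receptor, rose from 17, 18.6 and 18.8 TPM to 33.5, 33.6 and 33 TPM (log2 difference 0.84 ± 0.13 SE, adjusted p = 0.000822). CES1, a carboxylesterase, was at 135, 143 and 170.2 TPM and 149, 174 and 197 TPM (log2 difference 0.21 ± 0.17 SE, adjusted p = 0.426). GDF15 and TIPARP lay wholly above vehicle, TP53I3 wholly below it, and CES1 overlapped. Among 34 proteasome genes tested, 4 rose, 1 fell and 29 were not called (median log2 difference 0.02), with 2 rises without A549 DMSO replicate 1, LB DMSO replicate 1 or any combined replicate. The 11.8% that rose lay near the 10.2% of all genes, and the falls were 0 without LB DMSO replicates 2 or 3 or any combined replicate and 5 with quantile normalization. PSMD8, of the regulatory particle, rose from 527, 549.8 and 574 TPM to 645, 641 and 639.8 TPM (log2 difference 0.22 ± 0.039 SE, adjusted p = 0.00189). Among 20 cytosolic tRNA synthetase genes tested, 1 rose (5%, all genes 10.2%), 3 fell (15%, all genes 7.90%) and 16 were not called (median log2 difference -0.084). The rise was DARS (log2 difference 0.25 ± 0.078 SE, adjusted p = 0.0408, a call lost without LB DMSO replicates 1 or 2, LB amiodarone replicates 2 or 3 or combined replicates 2 or 3, at 0.0255 to 0.155 over the libraries left out). The number of rises was 2 and 3 without A549 DMSO replicates 1 and 2, and the falls were 5 with quantile normalization. VARS, for valine, fell from 72.4, 70.7 and 72.3 TPM to 52.7, 54.5 and 60.4 TPM (log2 difference -0.36 ± 0.056 SE, adjusted p = 0.0009).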
